A study of Mus musculus with 4 samples.

Results

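The transcripts of 10 genes that divide tissue macrophages into subsets were followed in single cells of the mouse testis, in the region of the rete testis (RT). They were *Lyve1*, *Fcna*, *Folr2*, *Mrc1*, *H2-Aa*, *H2-Ab1*, *Cd74*, *Ccr2*, *Ccl5* and *Blnk*, out of 31053 genes in the count tables. They were selected on measured values of these same libraries, so their split between macrophage types is given as a description. They were read in all cells and, in most depth, in the cells that held at least 1 unique molecular identifier (UMI, a tag that counts each captured transcript once) of each of *C1qa*, *C1qb* and *C1qc*, the 3 chains of complement C1q that macrophages make. These are called C1q cells. They numbered 215 of the 22567 barcodes with 1000 to 4500 detected genes, and of 46001 barcodes in all.

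Cells came from C57BL/6 male pups at day 14 after birth, 3 pups pooled in each of 4 libraries, 2 of controls and 2 of *Sox17*-cKO, with 5000 cells aimed for and 89969877 to 107203219 UMIs per library. Sets of 4 values are given in library order, which puts both controls (1, then 2) before both *Sox17*-cKO libraries (1, then 2). The *Sox17*-cKO pups carried SF1Cre (a Cre recombinase under the *Nr5a1* promoter, active in the gonadal somatic lineage) and both floxed alleles of *Sox17*, a transcription factor of the RT epithelium. The sample labels give the controls as SF1Cre, whereas the methods of the study give floxed littermates without Cre, so the allele that controls lacked cannot be stated here. The comparison addressed what the RT region loses without *Sox17*. In C1q cells *Sox17* had 1 UMI in all, so its deletion could not be checked in them. After the first digest the supernatant, with interstitial cells, was discarded, so macrophages of that fraction were not captured.

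Macrophages of the testis are described in the literature as an interstitial kind, which carries the mannose receptor MRC1 and little major histocompatibility complex (MHC) class II, and a peritubular kind with high MHC class II. LYVE1, a receptor for hyaluronan, with FOLR2 and MRC1 marks long-lived resident macrophages in many organs, often along vessels. CCR2, the receptor for the chemokine CCL2, marks monocytes and the macrophages that recently arose from them, which often carry MHC class II. MHC class II molecules present peptides to helper T cells.

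C1q cells numbered 25, 78, 41 and 71 in library order, and their median depth was 5295, 9151, 6411 and 8562 UMIs. All 14 genes of a list of general macrophage genes were detected in them, and *Csf1r*, the receptor for the macrophage growth factor CSF1, had a UMI in 97.2% of the cells. By markers 210 of the 215 were macrophages, 2 were Sertoli cells, 2 were interstitial cells and 1 was a germ cell. Of lists for other immune cells, the dendritic cell genes *Flt3*, *Xcr1*, *Clec9a* and *Cd209a* were at 0 UMIs, as were the B cell genes *Cd79a* and *Pax5* and the monocyte genes *Ly6c2* and *Chil3*. Other genes of those lists were present, led by the dendritic cell list's *Irf8* in 71.6% of C1q cells and *Batf3* in 16.7%, the B cell list's *Ighm* in 62.8% and *Cd79b* in 16.7%, and the monocyte list's *Fcgr4* in 15.8%. Transcripts of neighbouring cells were present at levels that differed between libraries, from 163 to 2422 CPM (UMIs of the gene or list for every 1000000 UMIs of the same cells) for 7 interstitial markers and from 157 to 976 CPM for 7 Sertoli markers, both highest in *Sox17*-cKO 1. All 215 cells had at least 2 UMIs of each C1q gene, 448 other retained cells had UMIs of 1 or 2 of the 3 genes, and 28 barcodes with all 3 lay above and 3 below the range of detected genes. Between the libraries 45 barcodes of retained cells were shared, none of them among C1q cells.

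*Folr2*, *Fcna* and *Mrc1* lay mainly in C1q cells, while *Lyve1* and the genes of the MHC class II side had more of their UMIs outside them. Of all UMIs in retained cells, C1q cells held 94.8% for *Folr2*, 82.8% for *Fcna* and 70.7% for *Mrc1*, while *Lyve1* was divided between C1q cells, with 38.4%, and cells with endothelial markers, with 36.3%. C1q cells held 38.2% of the UMIs of *Cd74*, 20.1% of those of *H2-Aa* and 8.76% of those of *H2-Ab1*. They held 69.4% for *Ccr2*, 27.0% for *Blnk* and 1.65% for *Ccl5*. The last of these lay to 83.1% in 31 cells with lymphocyte markers.

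**Figure D1:**
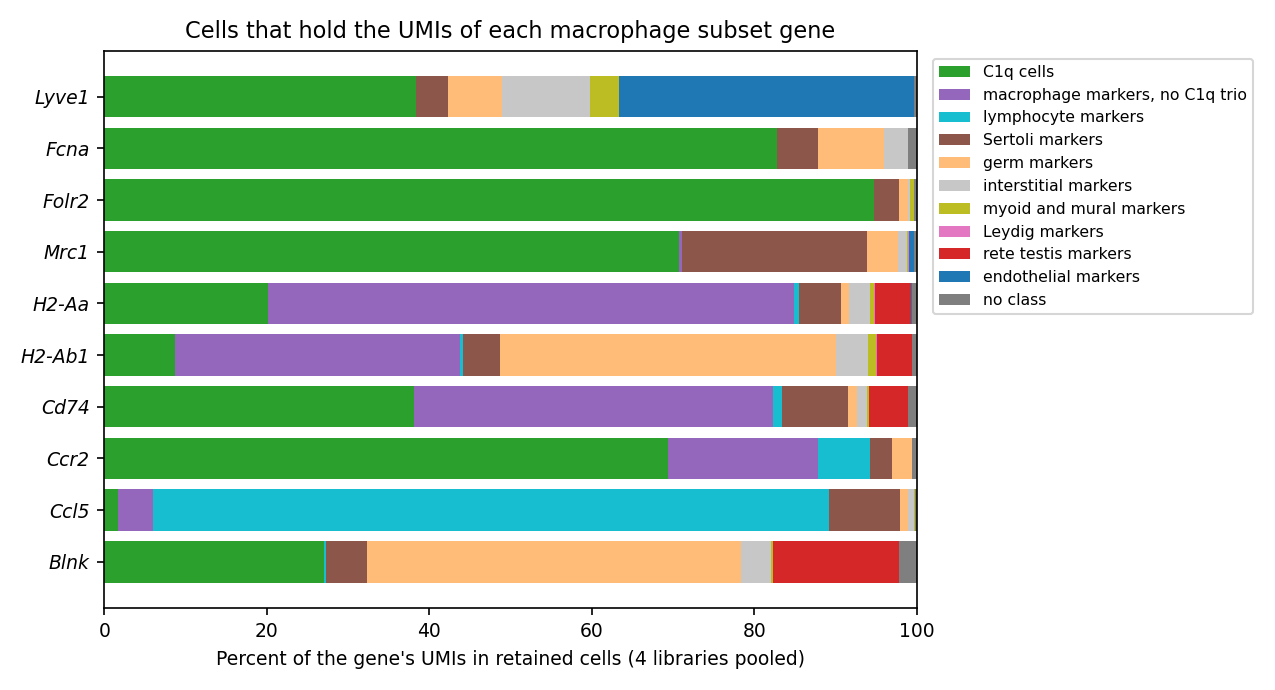
Share of each gene's UMIs (percent, horizontal axis, 4 libraries pooled) held by each class of retained cells, 1 bar per gene. C1q cells held 94.8% of *Folr2* UMIs and 1.65% of *Ccl5* UMIs, cells with macrophage markers but without all 3 C1q genes held 64.7% of *H2-Aa* UMIs, and cells with germ markers held 41.5% of *H2-Ab1* UMIs.

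The first 4 members make up the resident side. *Lyve1* stood at 255 and 210 CPM in C1q cells of the controls and at 96.2 and 66.0 CPM in those of *Sox17*-cKO. Both control libraries lay above both *Sox17*-cKO libraries. The log2 fold change (*Sox17*-cKO minus control) was -1.57, from edgeR's quasi-likelihood test on UMIs summed per library, with a standard error of 0.369. Standard errors, here and below, were derived as the absolute log2 fold change divided by the square root of the test's F statistic. For *Lyve1* the edgeR p was 0.00205 before and 0.999 after Benjamini-Hochberg adjustment over all 5815 genes tested. *Fcna* encodes ficolin A, a secreted lectin that binds microbial sugars. It stood at 56.6 and 72.1 CPM in controls and 10.3 and 20.4 CPM in *Sox17*-cKO, again without overlap, and its log2 fold change was -2.02 (standard error 0.460, edgeR p 0.0017, adjusted p 0.999). These rest on 66 and 16 UMIs of *Fcna* in the 2 genotypes, and without *Sox17*-cKO 2 the log2 fold change was -2.73 with an edgeR adjusted p of 0.0471. That fit has 1 *Sox17*-cKO library, which is assumed to vary like the 2 controls.

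*Folr2*, the folate receptor beta, stood at 120 and 261 CPM in controls and 134 and 122 CPM in *Sox17*-cKO, and the genotypes overlapped. Its log2 fold change was -0.69 (standard error 0.397, edgeR adjusted p 0.999). *Mrc1*, the receptor that takes up mannose-bearing glycoproteins, was the most abundant of the 4 and was detected in 88.8% of C1q cells. It stood at 1393 and 1351 CPM in controls and 1062 and 1237 CPM in *Sox17*-cKO, a log2 fold change of -0.30 (standard error 0.321, edgeR adjusted p 0.999), with both controls above both *Sox17*-cKO libraries. Levels of different genes are counts of captured 3′ ends and are compared here between libraries, not as amounts of protein.

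*Lyve1* was concentrated in few cells. A UMI of it was found in 5 of 25, 16 of 78, 5 of 41 and 8 of 71 C1q cells in library order, which is 20%, 20.5%, 12.2% and 11.3%. In cells with germ markers, which should lack it, the share was 0.585% at a median of 7515 UMIs, against 15.8% of C1q cells at 8094. The 18 C1q cells with at least 5 *Lyve1* UMIs held 87.3% of them, and 2, 10, 3 and 3 of these cells came from the libraries in that order. After each cell was thinned to 2000 UMIs, which left out none, the shares with *Lyve1* were 16%, 11.5%, 12.2% and 7.04%, and the genotypes overlapped. Markers of endothelium, the other source of *Lyve1*, were low in C1q cells. The 7 endothelial markers summed to 42.4, 70.9, 34.4 and 56.5 CPM, with *Cldn5* and *Emcn* at 0, and the lymphatic genes *Prox1*, *Flt4* and *Pdpn* to 28.3, 18.7, 10.3 and 7.85 CPM, with *Flt4* at 0, 4 UMIs of *Prox1* and 23 of *Pdpn*. The lymphatic sum was lower in both *Sox17*-cKO libraries, and its part in the *Lyve1* values was not tested.

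MHC class II is an alpha and a beta chain, and the mouse I-A molecule is encoded by *H2-Aa* and *H2-Ab1*. *H2-Aa* stood at 42.4 and 289 CPM in controls and 278 and 130 CPM in *Sox17*-cKO, and *H2-Ab1* at 14.1 and 338 against 189 and 141 CPM. *Cd74*, the invariant chain that guides MHC class II through the cell, stood at 311 and 1071 CPM in controls and 993 and 777 CPM in *Sox17*-cKO. For all 3 genes the *Sox17*-cKO libraries lay between the 2 controls, and control 1, with 25 cells, had the lowest value. In control 2 the same cell held 155 of the 232 UMIs of *H2-Aa*, 164 of the 272 of *H2-Ab1* and 300 of the 861 of *Cd74*. When the cell with the most *H2-Aa* and *H2-Ab1* UMIs was left out of every library, a step chosen after the levels were seen, control 2 stood at 96.8, 136 and 705 CPM. *Sox17*-cKO 1 then stood at 151, 98.4 and 738 CPM and *Sox17*-cKO 2 at 91.3, 91.3 and 669 CPM. Control 1 stood at 14.6, 14.6 and 241 CPM and remained lowest. *Sox17*-cKO 1 then lay above control 2 for *H2-Aa* and *Cd74*, while the order for *H2-Ab1* was unchanged. With all C1q cells, the log2 fold changes of *H2-Aa*, *H2-Ab1* and *Cd74* were 0.09 (standard error 0.640), -0.32 (standard error 0.760) and 0.29 (standard error 0.496). Each had an edgeR adjusted p of 0.999. Without control 2, which leaves the 25 cells of control 1 as the control, the log2 fold change of *H2-Ab1* was 3.45 with an edgeR adjusted p of 0.0337. It rests on 2 UMIs in the 1 control left, which is assumed to vary like the 2 *Sox17*-cKO libraries.

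Promoters of class II chain genes are known for a Y box, a CTGATTGG bound by NF-Y, and the upstream windows of *H2-Aa* and of *H2-Eb1* (the I-E beta chain) are shown because their RNA was found in the same type of cell below. Both come from RefSeq on build GRCm38.p6, run from 250 bases before to 50 bases after the start of the gene, and have the Y box in capitals.
H2-Aa, chr17:34287774-34288073, minus strand: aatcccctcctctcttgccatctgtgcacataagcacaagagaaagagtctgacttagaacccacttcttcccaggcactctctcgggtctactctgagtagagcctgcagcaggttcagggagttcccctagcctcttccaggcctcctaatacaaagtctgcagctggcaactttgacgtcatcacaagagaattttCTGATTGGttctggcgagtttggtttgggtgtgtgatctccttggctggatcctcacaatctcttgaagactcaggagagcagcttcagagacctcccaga
H2-Eb1, chr17:34305617-34305916, plus strand: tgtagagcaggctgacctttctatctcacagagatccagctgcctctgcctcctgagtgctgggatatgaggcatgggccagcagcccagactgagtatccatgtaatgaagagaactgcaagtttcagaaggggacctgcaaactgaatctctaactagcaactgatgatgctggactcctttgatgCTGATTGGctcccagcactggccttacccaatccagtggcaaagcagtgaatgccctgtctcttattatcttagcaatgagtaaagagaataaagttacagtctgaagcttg
The Y box began 51 bases before the start of *H2-Aa* and 62 bases before that of *H2-Eb1*. On either strand, the same 8 letters were found in 4.10% of the 32851 windows of this length, and among the 6 members whose windows were searched they were not in those of *Fcna*, *Folr2*, *Mrc1*, *Ccr2* and *Blnk*. They were also not in the windows of *H2-DMa*, another class II pathway gene. In GENCODE vM21 *H2-Ab1* (17, 34257689 to 34269419), *H2-Aa* (17, 34282744 to 34287823) and *H2-Eb1* (17, 34305867 to 34316674) lie next to one another on chromosome 17.

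*Ccr2* stood at 127 and 111 CPM in controls and 192 and 140 CPM in *Sox17*-cKO, a log2 fold change of 0.45 (standard error 0.357, edgeR adjusted p 0.999), with both *Sox17*-cKO libraries above both controls. *Ccl5*, a chemokine of T and NK cells, had 0, 1, 2 and 6 UMIs in C1q cells in library order. It did not pass the filter on low counts, which the other 9 members passed, and the 0 in control 1 allows a level of up to 21.2 CPM. *Blnk*, the adaptor that links the kinase SYK to downstream signalling in B cells and macrophages, stood at 77.8 and 73.4 CPM in controls and 27.5 and 36.1 CPM in *Sox17*-cKO. Its log2 fold change was -1.22 (standard error 0.388, edgeR p 0.0115, adjusted p 0.999), the libraries did not overlap, and it had a UMI in 40% and 46.2% of control against 19.5% and 21.1% of *Sox17*-cKO C1q cells.

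**Figure D2:**
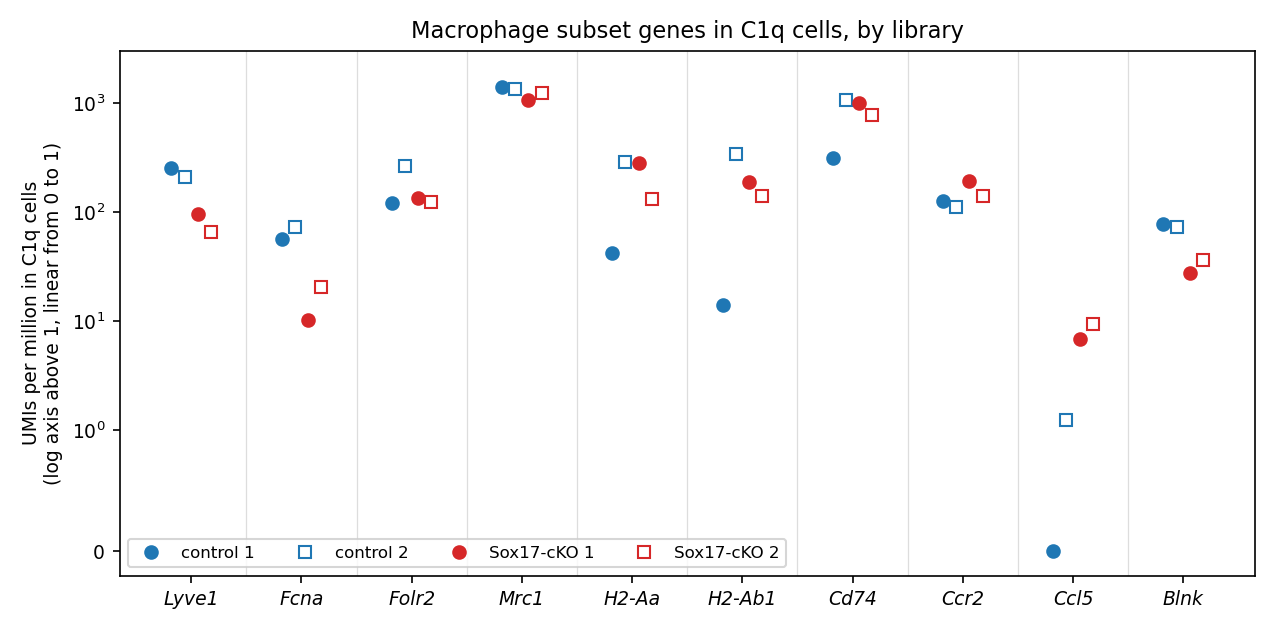
Level of the 10 genes in C1q cells (CPM, vertical axis, logarithmic above 1), 1 point per library with 2 control and 2 *Sox17*-cKO libraries. Both controls lie above both *Sox17*-cKO libraries for *Lyve1*, *Fcna*, *Mrc1* and *Blnk*, and control 1 is lowest for *H2-Aa* at 42.4, *H2-Ab1* at 14.1 and *Cd74* at 311.

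Across all genes no genotype difference passed adjustment in C1q cells. Of 5815 genes tested, 0 were called by edgeR (0%), 64 had an unadjusted p under 0.05 (1.1%), while by DESeq2 the numbers were 0 and 9. The libraries of the 2 genotypes did not overlap for 10.3% of the genes in the lower direction and for 14.6% in the higher. Of the 9 members tested, *Lyve1*, *Fcna*, *Mrc1* and *Blnk* were in the first group and *Ccr2* in the second, and *Lyve1*, *Fcna* and *Blnk* had an unadjusted p under 0.05. The members were chosen with these results known, so nothing is read from those counts. With 2 libraries per genotype, p-values measure the spread between libraries, which differ in pups, number of C1q cells and processing together. In summed counts, fewer *Lyve1* cells cannot be told apart from less *Lyve1* RNA per cell.

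Listed companions of the members did not pass the test between the genotypes either. Of 13 other resident macrophage genes, 12 were tested, 0 were called, and the median log2 fold change was -0.19 against 0.00 over all genes. *Cd209f*, a C-type lectin, and *Cd163*, the haemoglobin scavenger receptor, had the lowest values of that list, at -1.89 (standard error 0.839) and -1.27 (standard error 0.497), while *Cbr2*, a carbonyl reductase, was at 0.10 (standard error 0.586). Of the MHC class II pathway 6 of 13 genes were tested and 0 were called, with a median of -0.07 and a range from -1.04 for *H2-DMa* to 0.25 for *H2-DMb1*, which encode the chains of the peptide editor H2-DM. Neither the 7 tested genes among ligands and receptors that go with *Ccr2* and *Ccl5* (median -0.23) nor the 6 signalling partners of *Blnk* (median -0.11) held a call, and the 14 general macrophage genes had a median of -0.06. Of lists for other cells, 2 dendritic cell genes (median 0.33) and 2 B cell genes (median 0.51) were tested and not called, and no monocyte, T and NK cell, granulocyte or lymphatic gene passed the filter.

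The 2 macrophage types were set by 6 of the members. A C1q cell was of Lyve1 type if it had UMIs of at least 2 of *Lyve1*, *Fcna*, *Folr2* and *Mrc1* and not of both *H2-Aa* and *H2-Ab1*, and of MHC II type in the opposite case. Cells with both features were double positive and cells with neither double negative. Lyve1 type cells numbered 73 (34.0%), MHC II type cells 20 (9.30%), double positive cells 4 and double negative cells 118 (54.9%). The rule depends on detection, and 22.8% and 6.05% of the cells were of Lyve1 and MHC II type after thinning to 2000 UMIs per cell. When each cell took the type of which it held more UMIs, 80.9% were of Lyve1 type, 10.2% of MHC II type and 8.84% of neither.

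**Figure D3:**
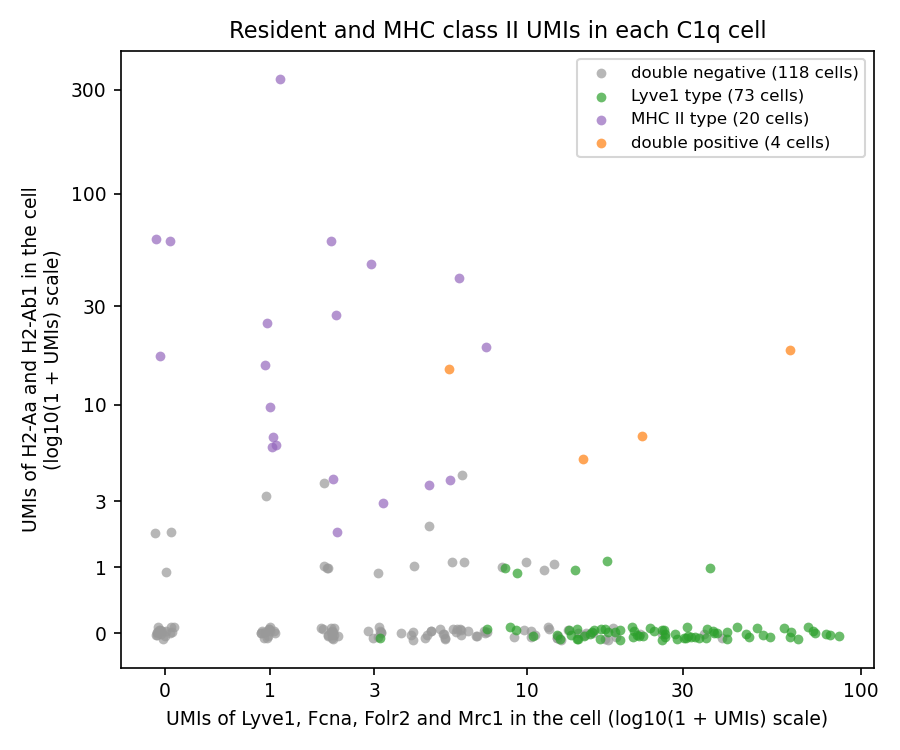
UMIs of the 4 resident genes (horizontal axis) and of *H2-Aa* and *H2-Ab1* (vertical axis), both on a log10(1 + UMIs) scale, with 1 point for each of the 215 C1q cells, jittered and coloured by type. The 73 Lyve1 type cells lie near the horizontal axis. The 20 MHC II type cells lie above it, and 16 of them also hold UMIs of *Mrc1*. A further 4 cells are double positive, and 118 cells are double negative.

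Most double negative cells carried *Mrc1* as their only gene of the resident side. *Mrc1* had a UMI in 83.1% of double negative cells and in 16 of the 20 MHC II type cells, where its pooled level was 260 CPM against 2165 CPM in Lyve1 type cells. *Lyve1* and *Folr2* had 0 UMIs in MHC II type cells, which allows up to 15% of such cells to carry a UMI and puts them at least 19.8-fold and 25.2-fold lower there than in Lyve1 type cells. Within Lyve1 type cells *Lyve1* itself was found in 33 of 73, at 1120 and 406 CPM in control 1 and 2 and 340 and 169 CPM in *Sox17*-cKO 1 and 2. These values follow from the rule and are given without a test.

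Of the 4 members that did not set the types, *Cd74* and *Ccr2* stood far apart between them. *Blnk* differed in direction between libraries, and *Ccl5* was not found in either type. *Cd74* had a UMI in all 20 MHC II type cells at a pooled 6247 CPM and in 26 of 73 Lyve1 type cells at 83.0 CPM. In library order it was 865, 7144, 9008 and 4258 CPM in MHC II type cells against 31.1, 110, 97.1 and 44.2 CPM in Lyve1 type cells. *Ccr2* was found in 14 of 20 MHC II type cells, at 490 CPM, and in 1 of 73 Lyve1 type cells, at 2.72 CPM. It was higher in MHC II type cells in every library. Neither gene was confined to that type. In double negative cells *Cd74* was found in 95 of 118, at 524 CPM, and *Ccr2* in 43 of 118, at 178 CPM. These cells held 165 of the 252 UMIs of *Ccr2*. None of the 34 cells with *Lyve1* had a *Ccr2* UMI, whereas 59 of the 181 other C1q cells did, at median depths of 8824 and 7892 UMIs. *Blnk* was found in both types, with a pooled 42.2 CPM in Lyve1 type cells and 76.7 CPM, from 13 UMIs, in MHC II type cells. In library order it was 93.4, 64.6, 12.1 and 12.1 CPM in Lyve1 type cells. In MHC II type cells it was 0, 85.5, 81.5 and 68.4 CPM, from 0, 7, 2 and 4 UMIs. *Ccl5* had no UMI in either type, and its 9 UMIs lay in double negative cells.

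The genes whose levels from cell to cell were most like those of *Lyve1* and *H2-Ab1* were compared next. Over the 215 C1q cells and 4643 genes, on log-scaled counts centred within each library, Pearson's r with *Lyve1* was 0.56 for *Folr2*, 0.54 for *F13a1* (coagulation factor XIII, A chain), 0.49 for *Ednrb* (endothelin receptor B), 0.46 for *Gas6* (ligand of the TAM receptors) and 0.45 for *Cbr2*. With *H2-Ab1* it was 0.66 for *Cd74*, 0.40 for *S100a6*, *Ccr2* and *S100a4*, and 0.38 for *Tnip3*, an inhibitor of NF-kappaB signalling. Cells of a library share its depth and free RNA, and *Lyve1* had a UMI in 15.8% and *H2-Ab1* in 19.1% of the cells, so these are descriptions.

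**Figure D4:**
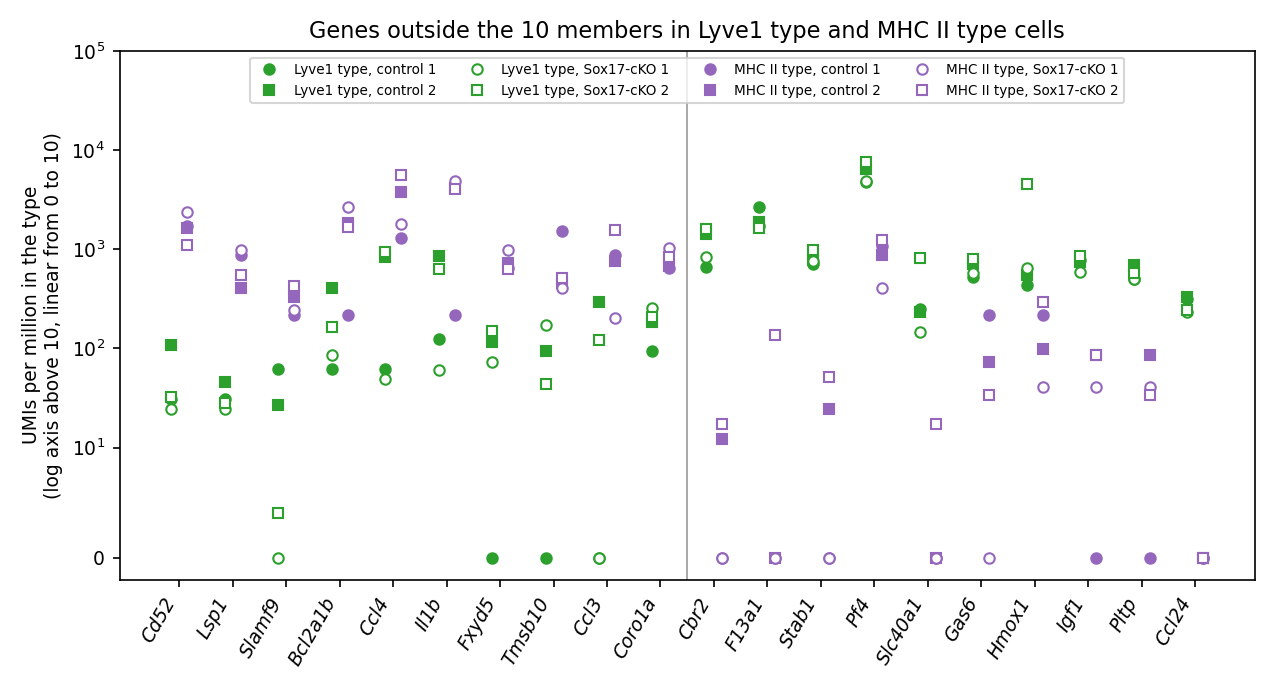
Levels (CPM, vertical axis, logarithmic above 10) of 20 genes outside the 10 members in Lyve1 type and MHC II type cells, 1 point per library and type. The 10 genes at the left were higher and the 10 at the right lower in MHC II type cells of all 4 libraries, by which they were picked. Control 1 gave 1 MHC II type cell, of 4624 UMIs, in which 1 UMI is 216 CPM. *Cd52* stood at 69.4 against 1557 in the pooled types.

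Other genes were tested between the types, with the library as a block and the 10 members left out of the calls. Of 1099 genes tested, 60 were higher in MHC II type cells (5.46%) and 114 were lower (10.4%) at an edgeR adjusted p under 0.05. The adjustment itself ran over 1106 genes, the members that passed the filter included, so their p-values bear on the adjusted p of the others. A gene could pass the filter on low counts through either type alone, so the numbers of higher and lower genes are not compared. The 10 genes with the smallest p that were higher in all 4 libraries included *Cd52*, a surface glycopeptide of leukocytes, *Lsp1* and *Coro1a*, which bind actin in leukocytes, and *Slamf9*. They also included the inflammatory cytokine *Il1b*, the chemokines *Ccl3* and *Ccl4*, the survival gene *Bcl2a1b*, *Fxyd5* and *Tmsb10*. For control 1 the direction rests on 1 MHC II type cell, in which 1 UMI is 216 CPM. *Slamf9*, *Bcl2a1b* and *Il1b* stood at that value in it. In double negative cells, which were not in this test, *Ccl4* stood at a pooled 3611 CPM and *Ccl3* at 866 CPM. Their pooled levels were 4035 and 961 CPM in MHC II type cells and 750 and 188 CPM in Lyve1 type cells. *Cd52* stood at 1730, 1636, 2364 and 1094 CPM in MHC II type cells in library order and at 31.1, 108, 24.3 and 32.1 CPM in Lyve1 type cells. Its log2 fold change was 4.74 (standard error 0.386, edgeR adjusted p 2.82e-17). *Il1b* was higher by 3.10 on the log2 scale (standard error 0.392, edgeR adjusted p 1.18e-09) and *Ccl4* by 2.92 (standard error 0.355, edgeR adjusted p 3.26e-10). When each cell was instead given the type of which it held more UMIs, the log2 fold changes of *Il1b*, *Ccl4* and *Ccl3* were 0.86, 0.03 and 0.22 and none of the 3 was called.

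The 10 genes with the smallest p on the lower side were *Cbr2*, *F13a1*, *Gas6*, *Stab1* (the scavenger receptor stabilin-1), *Pf4* (platelet factor 4), *Igf1* (insulin-like growth factor 1), *Pltp* (phospholipid transfer protein), *Ccl24* (a chemokine for eosinophils), *Slc40a1* (the iron exporter ferroportin) and *Hmox1* (haem oxygenase 1). *Pf4* stood at 4761, 6479, 4820 and 7555 CPM in Lyve1 type cells in library order and at 1081, 867, 408 and 1231 CPM in MHC II type cells, a log2 fold change of -2.94 (standard error 0.338, edgeR adjusted p 5.77e-11). *F13a1* had 1333 UMIs in Lyve1 type and 8 in MHC II type cells, and its log2 fold change was -5.30 (standard error 0.506, edgeR adjusted p 4.01e-14). *Cbr2* had 1016 UMIs against 2 and *Slc40a1* 309 against 1. *Ccl24* had 213 UMIs against 0 and was at least 16.4-fold lower in MHC II type cells. In control 1 *Slc40a1* and *Ccl24* stood at 249 and 311 CPM in Lyve1 type cells. Both were at 0 in its 1 MHC II type cell, where 1 UMI is 216 CPM. *Hmox1* varied more between libraries than these, with 4509 CPM in Lyve1 type cells of *Sox17*-cKO 2 and 436 to 643 CPM in the other 3.

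The filter on low counts bears on these lists. MHC II type cells had 4624 to 81887 UMIs per library, so a gene scarce in them passed only where it was abundant in Lyve1 type cells, and no count or median is read for the 9 of 13 listed resident macrophage genes that passed. Beside those above, they included *Selenop*, a selenium carrier, with 1607 UMIs in Lyve1 type and 63 in MHC II type cells, and the transcription factor *Maf* with 1351 and 59. Of the MHC class II pathway 2 of 13 genes were tested: *Ctss*, the protease that trims the invariant chain, was higher by 1.26 (standard error 0.305) and *Lgmn*, another lysosomal protease, lower at -1.64 (standard error 0.338), both called by edgeR. *H2-Eb1* was not among those tested, and it had 306 UMIs (1805 CPM) in MHC II type and 1 UMI in Lyve1 type cells. *Ciita*, the master activator of the class II genes, had 5 UMIs in MHC II type cells and 0 in Lyve1 type cells. Among the *Ccr2* and *Ccl5* partners 5 of 8 were tested. *Ccl3* and *Ccl4* were higher, *Ccl7*, a ligand of CCR2, was lower at -1.85 (standard error 0.418), and *Ccl2* and *Ccl12*, the other ligands of CCR2 here, were at -0.40 and -0.78 and were not called. Of the 11 general macrophage genes tested, 1 was called higher, 1 was called lower and 9 were not called. *Grb2* alone of the *Blnk* partners and *Irf8* alone of the dendritic cell genes were tested, at -0.19 and 0.36, and neither was called. Control 1 gave 1 MHC II type cell and control 2 gave 9. Without control 2 the fit called 58 genes in place of 174, all 58 of them among the 174.

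The share of C1q cells of each type was not shown to differ between the genotypes. MHC II type cells made up 4% (1 of 25), 11.5% (9 of 78), 7.32% (3 of 41) and 9.86% (7 of 71) in library order, with exact 95% Clopper-Pearson intervals of 0.101 to 20.4%, 5.41 to 20.8%, 1.54 to 19.9% and 4.06 to 19.3%. Lyve1 type cells made up 24%, 43.6%, 26.8% and 31.0% in the same order. The difference of means (*Sox17*-cKO minus control) was 0.819 percentage points for MHC II type and -4.89 for Lyve1 type, each with a p of 1 in a two-sided exact permutation test, whose smallest possible p with 2 against 2 libraries is 0.33. Leaving out 1 library, the MHC II type difference was -2.95 without control 1, 4.59 without control 2 and -0.45 without *Sox17*-cKO 2, so its sign turned. For Lyve1 type, control 1 lay below both *Sox17*-cKO libraries and control 2 above both, so its sign also depended on which control was left out. With stricter types, which need 3 resident genes or 2 UMIs of each MHC class II chain, the differences were 4.04 and -9.04, and with types set by the larger UMI sum they were 0.367 and 5.27, so the direction for Lyve1 type turned. The intervals cover counting error only.

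In 3 of the 4 libraries, a group of cells outside the C1q cells had a higher level of *H2-Aa*, *H2-Ab1* and *Cd74* than they did. It was made up of 33 retained cells with macrophage markers that lacked a UMI of at least 1 of the 3 C1q genes, and 1, 9, 11 and 12 of them came from the libraries in order. *H2-Aa* had a UMI in 12 of them but stood at 6929 CPM in the 33 pooled, *H2-Ab1* at 8987 CPM and *Cd74* at 10483 CPM. By library *H2-Aa* was at 0, 6498, 2622 and 10585 CPM, so the 1 cell of control 1 held none, and in control 2 the level came from 2 cells. *Ccr2* was found in 17 of the 33 at 359 CPM. *Lyve1*, *Fcna*, *Folr2* and *Blnk* had 0 UMIs there, which allows up to 9.09% of such cells to carry a UMI. *Plac8* was found in 16 cells, *Flt3* in 4, *Xcr1* in 4, *Clec9a* in 3, *Cd209a* in 3, *Csf1r* in 16, and the mast cell proteases *Cpa3* and *Mcpt4* in 6 each. *Klrd1*, a receptor of NK cells, was found in 5 and *Nkg7* in 2. The group thus mixed cells with monocyte, dendritic cell, mast cell, NK cell and macrophage genes and was given no name. By library, its list of 6 granulocyte and mast cell genes summed to 0, 5631, 1353 and 7855 CPM, and its 11 dendritic cell genes to 0, 707, 152 and 1303 CPM.

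*Ccl5* lay mainly in cells with lymphocyte markers. It was found in 18 of these 31 cells, and it stood at 7991, 1254, 7584 and 6852 CPM in library order, from 1, 15, 3 and 12 cells. The same cells carried *Cd3d*, a chain of the T cell receptor complex, in 19 and *Nkg7*, a granule gene of cytotoxic cells, in 24. *Ccr2* was found in 12 of them.

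*Lyve1* was also a gene of endothelial cells, where lymphatic and some blood endothelium use it. In the 69 cells with endothelial markers it stood at 487 and 466 CPM in controls and 474 and 579 CPM in *Sox17*-cKO, from 17 cells, and the genotypes overlapped there. Whether the genotype difference of *Lyve1* differed between C1q and endothelial cells was not tested. *Mrc1* had a UMI in 10.1% of 6501 cells with Sertoli markers, at a median of 4217 UMIs, against 1.49% of 8040 cells with germ markers at 7515. In Sertoli-marker cells it stood at 14.1 and 17.3 CPM in controls and 36.2 and 17.4 CPM in *Sox17*-cKO, and *C1qa* had a UMI in 0.554% of them.

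*H2-Ab1* was found in germ cells without its partner chain. It had a UMI in 14.1% of cells with germ markers, where *H2-Aa* had one in 0.249% and *Cd74* in 0.435%, while in Sertoli-marker cells the 3 shares were 1.68%, 0.585% and 2.97%. Its germ level was 11.1, 58.5, 22.6 and 59.6 CPM in library order, higher in the second library of both genotypes than in the first. Those second libraries held fewer cells with germ markers, 1305 and 1289 against 2780 and 2666 in the first (control, then *Sox17*-cKO). They were also processed with another Cell Ranger version, 6.1.2 in place of 6.0.2. The part of either in the result was not tested. Within germ cells the share with *H2-Ab1* was 25.6% of the 2128 without *Uchl1*, a gene of spermatogonia, and 9.96% of the 5912 with it, at median depths of 5096 and 8625 UMIs. It was 16.3% of the 6841 with *Tex101* and 1.33% of the 1199 without, at median depths of 7933 and 4095 UMIs. Of the 8 germ markers *Uchl1* alone had the higher share in the cells without it. *Uchl1* and *Tex101* were picked after the shares were seen. By level *Ddx4* went the same way as *Uchl1*. *H2-Ab1* stood at 37.0 CPM in germ cells without *Ddx4* and 31.0 CPM in those with it, at median depths of 3565 and 8479 UMIs.

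The MHC class II members were also detected in RT epithelium. Of 134 cells with at least 3 of 5 RT markers (*Pax8*, *Cdh1*, *Krt8*, *Krt19* and *Rmst*), 42.5% had a UMI of *H2-Ab1*, 42.5% of *Cd74*, 27.6% of *H2-Aa* and 35.1% of *Blnk*, while *Ptprc*, the pan-leukocyte gene CD45, had 0 UMIs in them and *C1qa*, *C1qb* and *C1qc* together had 3. *Lyve1*, *Fcna*, *Folr2*, *Mrc1* and *Ccr2* also had 0 UMIs, which allows up to 2.24% of these cells to carry one. *H2-Aa* stood at 106 and 130 CPM in controls and 34.3 and 29.8 CPM in *Sox17*-cKO, and *H2-Ab1* at 159 and 324 against 77.1 and 79.4 CPM. *Cd74* stood at 165 and 364 against 103 and 55.5 CPM. For all 3 genes both controls lay above both *Sox17*-cKO libraries, which held for 15.3% of the 5302 genes tested in these cells.

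**Figure D5:**
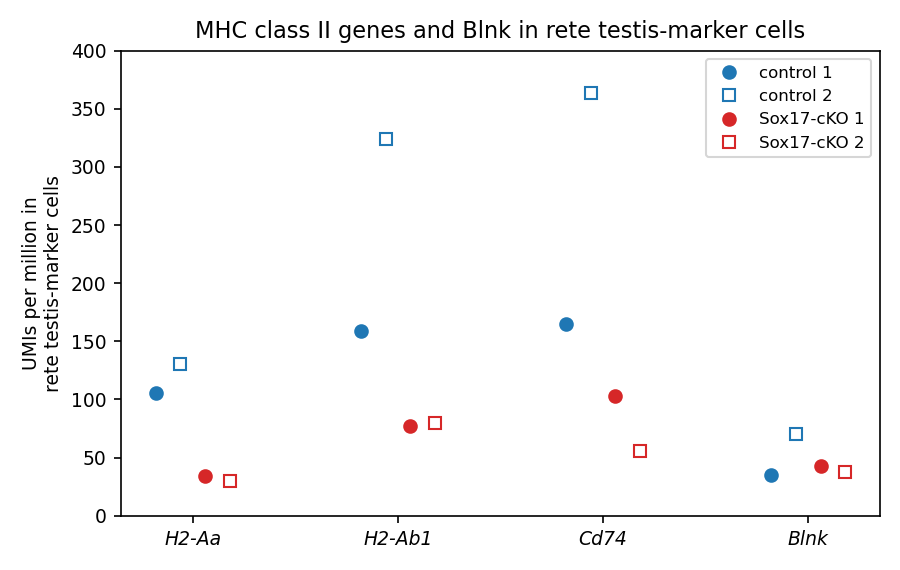
Levels (CPM, vertical axis from 0) of *H2-Aa*, *H2-Ab1*, *Cd74* and *Blnk* in cells with RT markers, 1 point per library with 2 control and 2 *Sox17*-cKO libraries. The controls lie above both *Sox17*-cKO libraries for the first 3 genes (for *H2-Aa* 106 and 130 against 34.3 and 29.8) and overlap them for *Blnk*.

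The genotype test in RT-marker cells was added after these levels were seen. *Sox17* itself was called, at 441 and 281 CPM in controls and 42.8 and 29.8 CPM in *Sox17*-cKO (log2 fold change -3.45, standard error 0.430, edgeR adjusted p 0.0114). It was 1 of 7 genes called lower, 0.132% of those tested, and none was called higher. The log2 fold changes were -1.98 for *H2-Aa* (standard error 0.411, edgeR p 0.00054, adjusted p 0.13), -1.69 for *H2-Ab1* (standard error 0.398, edgeR p 0.00136, adjusted p 0.206) and -1.99 for *Cd74* (standard error 0.454, edgeR p 0.00112, adjusted p 0.197). That of *Blnk* was -0.57 (standard error 0.478, edgeR adjusted p 0.999). The 3 class II genes passed the threshold without the filter on low counts (edgeR adjusted p 0.0217, 0.012 and 0.00118 for *H2-Aa*, *H2-Ab1* and *Cd74*) and without *Sox17*-cKO 1, which had 14 cells (0.00683, 0.00954 and 6.42e-05). They also passed it with the Cell Ranger version, which coincides with the replicate number, as a block (0.0165, 0.0118 and 0.0138), but not with DESeq2 (0.884, 0.638 and 0.41). Leaving out any other library, they did not pass it, with edgeR adjusted p of 0.296, 0.118 and 0.0643 without control 1, of 0.983, 1 and 0.914 without control 2, and of 0.193, 0.0765 and 0.154 without *Sox17*-cKO 2. Each of these fits, the one that passed included, has 1 library in an arm, whose spread is taken from the other arm. A UMI of at least 1 of the 3 was found in 13 of 20 and 34 of 44 control against 6 of 14 and 26 of 56 *Sox17*-cKO cells, at median depths between 8550 and 9114 UMIs. The difference in these genes between RT-marker and C1q cells was not tested.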

How the data were processed

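Single-cell 3' RNA libraries of the RT region were made by the authors on the 10x Chromium platform (v3 chemistry per the labels, v3.1 per the methods), and raw UMI count matrices against mm10 were deposited per library. Cell Ranger 6.0.2 made those of control 1 and *Sox17*-cKO 1 and Cell Ranger 6.1.2 those of control 2 and *Sox17*-cKO 2, with STAR named in the submitters' processing notes. The counts were used as deposited, and 2 aggregated matrices of the same libraries were not used. Per the methods, the authors removed low-quality cells and doublets by limits on detected genes and on mitochondrial content, a filtering that is not in the matrices. Their limits on detected genes were used here and their mitochondrial limit was not. The median mitochondrial share of UMIs in C1q cells was 3.80%, 3.87%, 2.81% and 3.87% in library order.

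Barcodes with 1000 to 4500 detected genes were retained. No doublet caller was run here. C1q cells had at least 1 UMI of *C1qa*, *C1qb* and *C1qc*. Other cells took the class with the largest share of its markers detected (at least 3, no tie). Counts were summed per library, or per library and type, filtered with filterByExpr, scaled by TMM and tested with edgeR 4.0.16 (quasi-likelihood, R 4.3.3) at an adjusted p under 0.05. The genotype fit held 2 against 2 libraries without a block, and the type fit held 8 sums with the library as a block. Shares were compared by a two-sided exact permutation test over libraries. DESeq2 1.42.0 and other settings were alternatives, and the fits were tested on simulated data. There the genotype fit in C1q cells called 10% of genes changed 2-fold and 75% of those changed 4-fold, with 3 false calls. The type fit called 43.1% and 95.5%, with 8 false calls. The genotype fit in RT-marker cells called 19.7% and 74.6%, with 1 false call. Most 2-fold changes would thus be missed. Scripts ran in Python 3.11.15.

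The 10 members and all gene lists were chosen with earlier results of these data known. Outside the members, the text names the 10 genes with the smallest p in each direction of the type test among those moving the same way in all 4 libraries, genes of the lists, and the 5 genes most like *Lyve1* and *H2-Ab1*. The last were sought among genes with a UMI in at least 20% of C1q cells. The median depth per C1q cell, 5295 to 9151 UMIs, limits detection, and intervals (95%, Clopper-Pearson) and limits from 0 counts (3 counts of the total) cover counting error only. Libraries are pools of 3 pups. Coordinates are of GENCODE vM21 on GRCm38, and promoter windows are from RefSeq on GRCm38.p6. A result on 1 listed gene is not reported here.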

Additional observations from a re-analysis of the deposited data

How the results depend on the processing

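Of 99 values of the 9 members tested between genotypes under other settings, 92 kept direction and side of the threshold. The setting with at least 2 UMIs of each C1q gene kept every C1q cell, so it repeated the main fit here and in the type test. *Folr2* was at 0.043 without control 2 (-1.06 without control 1), *H2-Ab1* at 3.45 (-1.08), *Cd74* at 1.46 (-0.31) and *H2-Aa* at 2.18 (-0.56), with *H2-Aa* at -0.56 also without *Sox17*-cKO 1 and at -0.045 for cells below 10% mitochondrial UMIs. No member or 1 member (0 to 1) was called when 1 library was left out, *H2-Ab1* without control 2 and *Fcna* without *Sox17*-cKO 2. Genotype calls in C1q cells were 0, but 11 with no filter on low counts and 3 to 34 when 1 library was left out. The difference in MHC II type share, 0.819 points, ranged from -2.95 without control 1 to 4.59 without control 2 and was -0.45 without *Sox17*-cKO 2. Type calls, 174, were 289 with no filter, 115 over all barcodes, 95 with stricter types, 71 with types set by the larger UMI sum, and 58 (without control 2) to 202 (without control 1). Among the calls with the larger UMI sum 56 were shared with the 174, and with stricter types 81. Of 389 values of 29 named genes in that test, 358 kept their call, 28 lost it and none turned sign. RT-marker cells gave 7 calls, but 13 by DESeq2, 57 with no filter and 7 to 83 without 1 library, with 25 without control 2 and 51 without *Sox17*-cKO 2. Fits without 1 library leave 1 sample in an arm of the genotype comparison, which is assumed to vary like the other arm. The cause of these changes was not tested. The RT-marker settings were chosen after seeing the data.

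With the replicate number as a block, 1 gene was called between genotypes in C1q cells (no member) and 50 in RT-marker cells, where *H2-Aa*, *H2-Ab1* and *Cd74* had edgeR adjusted p of 0.0165, 0.0118 and 0.0138. Samples of the same number deviated together (r = 0.326 over 5815 genes). They were also alike in make-up. Cells with germ markers numbered 2780 and 2666 in control 1 and *Sox17*-cKO 1, and 1305 and 1289 in control 2 and *Sox17*-cKO 2. The number coincides with the Cell Ranger version, and the labels do not say that libraries of a number were paired. The main genotype fits hold no block for it, so the difference between the numbers is part of their spread. The type fit without the library block called 126 genes, all among the 174.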
